A study of Homo sapiens with 6 samples.

Results

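BTC, 5 further ligands of the epidermal growth factor receptor (AREG, EREG, TGFA, HBEGF and EGF) and 3 receptors of the ERBB family (EGFR, ERBB2 and ERBB3) were followed in RNA-seq libraries of A549 cells, a human lung adenocarcinoma line. These 9 genes are the rows of the count files that carry the 9 symbols, out of 26485 gene symbols, and all 9 were detected. They were chosen with the difference between the groups already known, so their values for that difference are given as a description, without p-values. How many of them lie past the cut-offs is stated beside the share of all genes, and nothing is drawn from it. All cells stably carried dCas9-KRAB, in which a nuclease-dead Cas9 is joined to a repressor domain, selected with puromycin. They also carried rat Nkx2-1, a lung transcription factor expressed from a PGK lentiviral vector that marks cells with GFP, by which they were sorted. The cells were transiently transfected with synthetic sgRNA #2, whose target lies in the first intron of SFTPB, in 3 libraries, or with a non-targeting sgRNA control in the other 3. Reads assigned to genes numbered 6341459, 7068999 and 7584611 with the control and 7058274, 6598372 and 6047554 with sgRNA #2. The triplicates were described as biologically independent, and the Nkx2-1 in these cells is exogenous and from another species.

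The labels were checked on SFTPB, the gene that sgRNA #2 targets, and on LAMP3. SFTPB, which encodes surfactant protein B, had 2683, 2877 and 3155 counts with the control and 40, 42 and 49 with sgRNA #2, and LAMP3, a lamellar body membrane protein, had 89, 142 and 111 against 15, 36 and 37. Among 8 markers of A549 and epithelial cells, CDKN2A, a gene deleted in A549, was at 0 in all 6 libraries, and the summed level was 7293 ± 381 CPM (normalised counts per 1e6 reads, SD, n = 3) with the control and 7081 ± 471 CPM with sgRNA #2. ALDH1A1 was the most abundant of them. CDH1, the epithelial cadherin, fell by 0.34 on the log2 scale (SE of the fit 0.0669, edgeR adjusted p = 0.00728, by the quasi-likelihood test and Benjamini-Hochberg adjustment), and of the 7 markers tested 1 passed without the block, beside 2.69% of all tested genes. With the replicate number as a block 3 of them passed, beside 10.0%, adding KRT8 (log2 fold change -0.13, edgeR adjusted p = 0.0235 with the block) and AKR1B10 (0.13, 0.0297). The counts of CDH1 were 1380, 1743 and 1887 against 1317, 1291 and 1104. Of 12 markers of immune, endothelial, fibroblast, basal, ciliated and club cells, 8 had at most 3 counts in every library. PTPRC and CD3E, which define leukocytes and T cells, were at 0, and the most abundant was CD68. Their summed level was 102 ± 5.21 CPM with the control and 107 ± 6.95 CPM with sgRNA #2, and of the 3 that could be tested 0 passed in edgeR or DESeq2, with 0 at an unadjusted p under 0.05.

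The EGFR ligands are made as membrane-anchored precursors that ADAM proteases cut at the cell surface, and the released growth factor then acts on the same cell or its neighbours. EGF, TGFA and AREG bind EGFR, whereas BTC, EREG and HBEGF can also bind ERBB4. A bound receptor pairs with another member of the family and signals through RAS and ERK, PI3K and AKT, phospholipase C and STAT proteins. ERBB2 has no known ligand of its own and is the preferred partner of the others, and ERBB3 binds neuregulins but has little kinase activity. In lung epithelium this system is known for its part in repair and growth, and in lung adenocarcinoma for activating EGFR mutations.

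BTC encodes betacellulin, and its sequence near the transcription start is shown beside the target of sgRNA #2, because the start of BTC carries a partial match to that sgRNA. The capitals mark the PAM in the target, and in BTC the run of bases next to the PAM that is the same as in the sgRNA.
sgRNA #2 target in SFTPB: gggatgggaggggaacacccAGG
BTC site: tacaaggcagggaAACACCCagg
The target lies at chr2:85668529-85668551 on the minus strand of GRCh38, in an intron of 2 of the 7 annotated SFTPB transcripts. The site lies at chr4:74794475-74794497 on the plus strand, 37 bp downstream of the annotated start of BTC, in the exonic untranslated part of 1 of 2 BTC transcripts. Its 7 PAM-proximal bases are those of the sgRNA. It differs at 6 positions, G1T, G2A, G3C, T5A, G8C and G13A, with the base at the 5′ end of the sgRNA as position 1. A run of at least 7 such bases before an NGG lay within 1000 bp of a transcription start in 721 of 13082 annotated tested genes, or 5.51%, and a run of at least 10 in 0.214%. These shares count the run within that window only. How common a site with 6 differences in all, or as near as 37 bp, would be was not determined. TGFA and HBEGF had runs of 6 bases, found in 24.1% of these genes, at -677 and -610 bp from a start, and the other 6 genes had none of 6 or more. Binding of dCas9-KRAB at these sites was not measured.

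BTC was at the limit of detection in every sgRNA #2 library. It lies on the minus strand at chr4:74744759-74794523 and overlaps no other annotated gene. The control libraries held 23, 33 and 25 counts, or 3.66, 4.68 and 3.29 CPM, and each of the 3 sgRNA #2 libraries held 3 counts, or 0.427, 0.451 and 0.4997 CPM. The lowest control library thus stood well above the highest sgRNA #2 library. The mean level was 3.88 ± 0.719 CPM (SD, n = 3) with the control and 0.459 ± 0.0372 CPM with sgRNA #2. A count of 3, taken as the floor of detection, is worth 0.394 to 0.4997 CPM in these libraries. The sgRNA #2 libraries were thus at the floor. Summed over libraries, 81 counts against 9 gave a ratio of 8.46 after scaling to library size, with a 95% exact interval of 4.24 to 19.2 that covers counting error only. The fitted log2 fold change was -3.03 (SE 0.382), and without single libraries it ranged from -3.14 to -2.87. In bulk libraries, fewer cells that express a gene and less RNA per cell cannot be told apart.

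AREG and EREG, which encode amphiregulin and epiregulin, were both higher with sgRNA #2. AREG, on the plus strand at chr4:74445136-74455005, had 162, 131 and 194 counts with the control and 288, 233 and 235 with sgRNA #2. In CPM these were 25.8, 18.6 and 25.5 against 41.0, 35.0 and 39.1. The groups did not overlap, and in each of the 3 pairs of libraries with the same replicate number the sgRNA #2 library was the higher. The mean was 23.3 ± 4.10 CPM (SD, n = 3) against 38.4 ± 3.06 CPM, a 1.65-fold difference, with a log2 fold change of 0.72 (SE 0.122).

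EREG, on the plus strand at chr4:74365145-74388749, was the most abundant ligand. It had 1153, 801 and 1014 counts, or 184, 114 and 133 CPM, with the control and 2090, 1397 and 1380 counts, or 297, 210 and 230 CPM, with sgRNA #2. The lowest sgRNA #2 library lay above the highest control library, with a narrower gap than for AREG relative to the spread, and replicate 1 was the highest of both groups. The mean was 143 ± 36.1 CPM with the control and 246 ± 45.8 CPM with sgRNA #2, a 1.72-fold difference, with a log2 fold change of 0.78 (SE 0.138). The log2 differences within the pairs were 0.69, 0.88 and 0.78, closer to each other than the libraries of one group were. For AREG they were 0.66, 0.90 and 0.61.

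The promoters of BTC, AREG and EREG are shown because BTC was lower and its neighbours AREG and EREG were higher with sgRNA #2. Each is the 250 bases before the start in RefSeq (GRCh38.p14), read on the strand of the gene, and capitals mark matches on either strand to one of 5 motifs.
BTC promoter, chr4:74794524-74794773, minus strand: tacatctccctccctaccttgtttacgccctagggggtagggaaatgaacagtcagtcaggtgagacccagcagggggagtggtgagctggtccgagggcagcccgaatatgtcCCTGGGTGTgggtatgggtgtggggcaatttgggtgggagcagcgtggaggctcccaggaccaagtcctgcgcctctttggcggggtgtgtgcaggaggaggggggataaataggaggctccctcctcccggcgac
AREG promoter, chr4:74444886-74445135, plus strand: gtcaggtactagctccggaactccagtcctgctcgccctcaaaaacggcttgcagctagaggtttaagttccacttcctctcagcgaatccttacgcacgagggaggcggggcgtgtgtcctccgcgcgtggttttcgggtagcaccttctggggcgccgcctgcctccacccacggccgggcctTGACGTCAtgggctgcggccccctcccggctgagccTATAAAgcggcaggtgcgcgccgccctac
EREG promoter, chr4:74364895-74365144, plus strand: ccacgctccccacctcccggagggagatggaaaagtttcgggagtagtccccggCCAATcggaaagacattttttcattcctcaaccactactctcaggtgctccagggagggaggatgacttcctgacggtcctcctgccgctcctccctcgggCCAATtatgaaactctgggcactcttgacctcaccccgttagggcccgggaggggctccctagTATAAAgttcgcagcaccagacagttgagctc
The motifs searched were TATAAA (the TATA box), TGACGTCA (the cAMP response element), TGANTCA (bound by AP-1 factors), CCAAT, and ACACCCNGG, the last 6 bases of sgRNA #2 followed by a PAM. TGACGTCA and TGANTCA read the same on both strands, and no motif's matches overlapped those of another in these 3 promoters. They were chosen after the values had been seen. AREG holds TATAAA at positions -29 to -24, counting the start as 0, and TGACGTCA at -65 to -58. EREG holds TATAAA at -32 to -27 and CCAAT at -196 to -192 and -95 to -91. BTC holds ACACCCNGG, read on the other strand, at -136 to -128 and again at 26 to 34, where it is the end of the site printed above. Over 35116 RefSeq promoters, taken from 250 bases before to 50 bases after the start, TATAAA was found in 11.5%, TGACGTCA in 1.85%, TGANTCA in 7.71%, CCAAT in 34.6% and ACACCCNGG in 1.51%. A match in these letters is a description of the sequence and no record of binding.

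The other 3 ligands differed less between the groups. TGFA, which encodes transforming growth factor alpha and lies at chr2:70447284-70554193, had 367, 375 and 424 counts with the control and 372, 347 and 298 with sgRNA #2. Its level was 55.8 ± 2.65 against 51.6 ± 1.71 CPM, and the groups did not overlap after scaling, although 53.1 CPM in control replicate 2 and 52.9 CPM in sgRNA #2 replicate 1 were close. The log2 fold change was -0.11 (SE 0.0804). Part of its count may belong to TGFA-IT1, a transcript within the gene on the same strand.

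HBEGF, the heparin-binding ligand, lies at chr5:140332843-140346603. It had 236, 201 and 266 counts against 365, 272 and 207, so sgRNA #2 replicates 1 and 2 were high and replicate 3 lay within the control range. The level was 33.7 ± 4.69 with the control and 42.4 ± 8.82 CPM with sgRNA #2, with a log2 fold change of 0.34 (SE 0.134) that ranged from 0.17 to 0.47 when single libraries were left out. EGF, the ligand that named the family, lies at chr4:109912883-110013766 and was the lowest of the ligands after BTC by CPM. It had 24, 36 and 33 counts against 33, 38 and 34, the groups overlapped, and the log2 fold change was 0.27 (SE 0.2195). A small nuclear RNA gene, RNU6-35P, lies within EGF on the same strand.

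**Figure D1:**
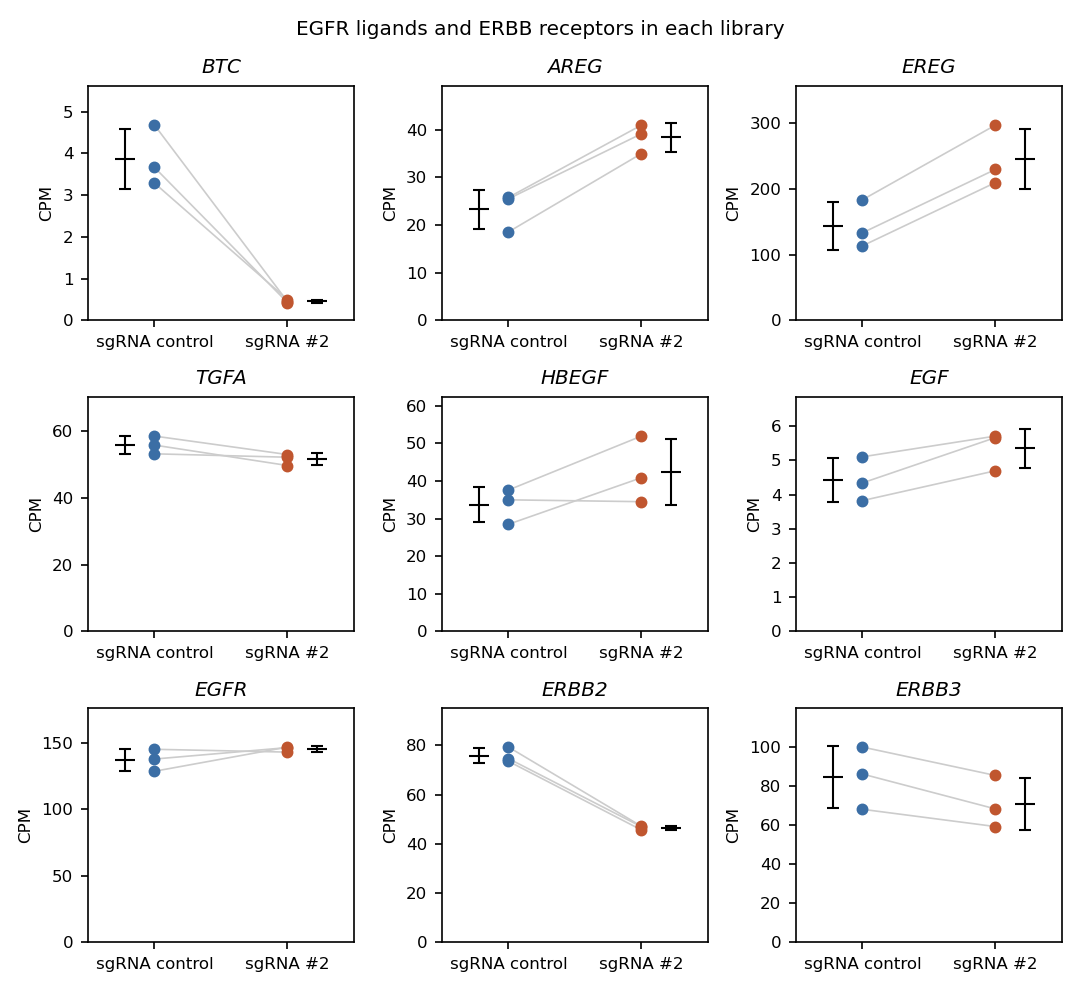
Level of each of the 9 genes in every library, in CPM on linear axes that start at 0, with 1 point per library, grey lines between libraries with the same replicate number, and the mean ± SD of each group (n = 3) beside the points. The 3 sgRNA #2 libraries sit between 0.427 and 0.4997 CPM for BTC, above all control libraries for AREG and EREG, and below them for ERBB2.

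ERBB2 was the receptor that differed most. It lies on the plus strand at chr17:39687914-39730426 and had 462, 560 and 568 counts, or 73.6, 79.4 and 74.7 CPM, with the control and 321, 314 and 282 counts, or 45.7, 47.2 and 47.0 CPM, with sgRNA #2. Libraries of a group lay close together and the groups were far apart. The mean was 75.9 ± 3.07 CPM (SD, n = 3) against 46.6 ± 0.817 CPM, a 1.63-fold difference, with a log2 fold change of -0.70 (SE 0.0764). When each library was left out it stayed between -0.72 and -0.67. PGAP3 and MIEN1 overlap ERBB2 on the other strand and MIR4728 on the same strand, so its count is uncertain to that extent, as the strand setting of the counting is not given in the sources used here.

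EGFR, the receptor shared by all 6 ligands, lies at chr7:55019017-55211628 and was at nearly the same level in both groups. It had 866, 1025 and 979 counts against 1030, 953 and 882, or 137 ± 8.28 against 146 ± 2.08 CPM, and the groups overlapped. The log2 fold change was 0.08 (SE 0.0665), with 0.04 without control replicate 3 and 0.13 without control replicate 2. An antisense transcript, EGFR-AS1, overlaps the gene. ERBB3, the neuregulin receptor, lies at chr12:56076799-56103505 and had 427, 607 and 759 counts against 416, 454 and 512. The groups overlapped, since the replicates differed widely in both, with 84.6 ± 15.9 CPM against 70.9 ± 13.3 CPM. Within each pair of the same replicate number the sgRNA #2 library was lower, by 0.20, 0.33 and 0.23 on the log2 scale. The log2 fold change over all libraries was -0.27 (SE 0.127), between -0.41 and -0.13 without single libraries, and another annotated gene, ENSG00000257411, overlaps ERBB3 on the same strand.

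The study's cut-offs are a log2 fold change of at least 1 in size and an adjusted p under 0.05. Of the 9 genes, 1 lay past both, BTC, where 0.719% of the 13356 tested genes did (96 genes), 0.689% as lower and 0.0299% as higher. By the adjusted p alone it was 4, BTC and ERBB2 on the lower side and AREG and EREG on the higher side, where 2.69% of all tested genes passed (359 genes). With the replicate number as a block it was 1 past both, beside 0.913% of all genes, and 6 by the adjusted p alone, adding HBEGF and ERBB3, beside 10.0%. By DESeq2 it was 3, without EREG, beside 2.26%. The groups did not overlap in 5 of the 9, and in 15.6% of all tested genes. Since the genes were chosen on this contrast, these counts only restate the choice. The median log2 fold change of the 9 was 0.08, and that of all tested genes was 0.0035.

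Levels of different genes were compared per kilobase of exon. With the control, EREG led the ligands with 25.1 ± 6.33 CPM per kb (SD, n = 3), followed by AREG with 14.2 ± 2.49. TGFA with 11.3 ± 0.540 and HBEGF with 11.3 ± 1.57 CPM per kb came next and did not differ beyond their spread. BTC with 1.46 ± 0.271 and EGF with 0.580 ± 0.0844 CPM per kb were far below. With sgRNA #2, EREG stood at 43.0 ± 8.02, AREG at 23.4 ± 1.86, HBEGF at 14.2 ± 2.95 and TGFA at 10.5 ± 0.348 CPM per kb. BTC, at 0.173 ± 0.0140, had passed below EGF, at 0.702 ± 0.0751 CPM per kb. BTC was therefore a minor ligand transcript in both groups, and EREG was the major one. AREG had the next highest mean in both groups, but with the control it exceeded TGFA and HBEGF by little relative to its spread.

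The summed ligand level was 74.2, 53.9 and 63.7 CPM per kb with the control and 105.9, 83.2 and 86.6 with sgRNA #2, without overlap. The sum was thus higher with sgRNA #2 although BTC was lower. EREG made up 38.9 ± 3.81% of it with the control and 46.6 ± 2.51% with sgRNA #2, and AREG 22.2 ± 1.92% and 25.6 ± 1.98%. The share of TGFA was 17.95 ± 2.01% and 11.5 ± 1.29%, and that of HBEGF 17.7 ± 0.708% and 15.4 ± 1.79%. BTC held 2.36 ± 0.789% with the control and 0.191 ± 0.0346% with sgRNA #2.

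The receptors were of similar level per kb with the control, 8.61 ± 0.520 for EGFR, 7.35 ± 0.297 for ERBB2 and 7.22 ± 1.36 CPM per kb for ERBB3. ERBB2 and ERBB3 did not differ beyond their spread there. The order depends on the length used, since per kb of the longest transcript ERBB2 led with 15.4, before EGFR with 13.9 and ERBB3 with 13.5 CPM per kb. With sgRNA #2 the levels per kb of exon were 9.13 ± 0.130 for EGFR, 6.05 ± 1.13 for ERBB3 and 4.51 ± 0.0791 for ERBB2. The share of EGFR in the receptor sum was 37.2 ± 3.13% and 46.5 ± 2.73%, that of ERBB2 31.7 ± 1.33% and 22.97 ± 1.17%, and that of ERBB3 31.0 ± 4.46% and 30.6 ± 3.79%, for the control and sgRNA #2 in turn.

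**Figure D2:**
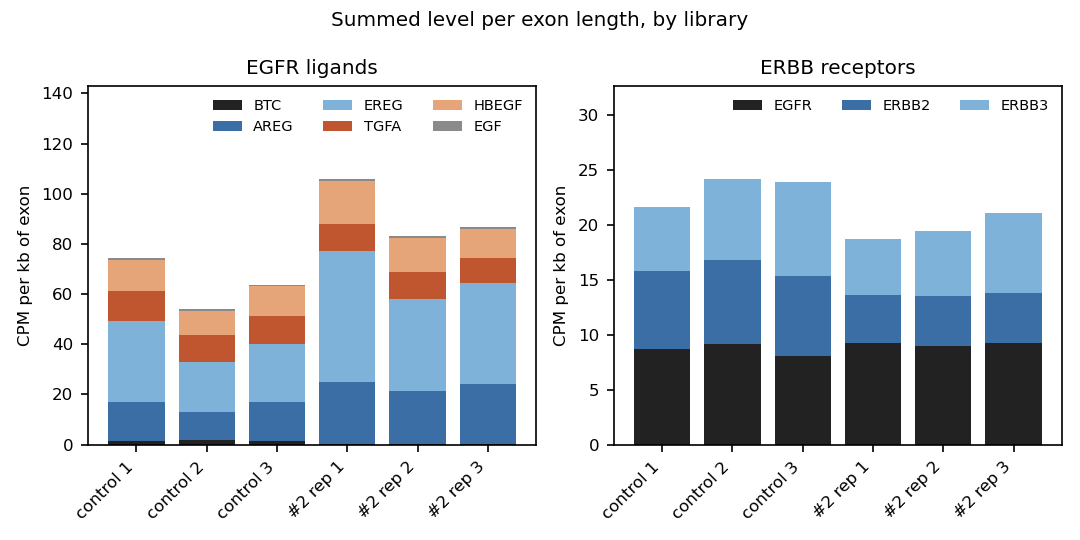
Summed level of the 6 ligands (left) and 3 receptors (right) in each library, in CPM per kb of exon on axes that start at 0, with each gene as a coloured segment. EREG and AREG fill most of the ligand bars and all 3 sgRNA #2 bars are taller than the control bars, while the ERBB2 segment is shorter in the 3 sgRNA #2 libraries.

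BTC, AREG, EREG and EPGN lie together on chromosome 4, next to a cluster of CXC chemokine genes, and the other genes within 1 Mb of BTC were examined. The count files hold 21 genes of this stretch, BTC included, and 14 could be tested. Of the 11 tested genes other than the ligands above, 0 passed both cut-offs in edgeR or DESeq2, and 4 had an unadjusted p under 0.05 in edgeR, as did 11.1% of all tested genes. On the side of EREG and AREG, 3 chemokine genes rose at the adjusted p, beside 0.464% of all tested genes. CXCL5 had 3860, 3691 and 3684 counts with the control and 5779, 4945 and 4134 with sgRNA #2, a log2 fold change of 0.48 (SE 0.0851, edgeR adjusted p = 0.00313). CXCL1 had 396, 405 and 328 against 689, 592 and 381 counts, a log2 fold change of 0.63 (SE 0.139, edgeR adjusted p = 0.0169). CXCL2 had 197, 208 and 173 against 299, 263 and 220 counts, a log2 fold change of 0.51 (SE 0.117, edgeR adjusted p = 0.0195). These genes encode attractants of neutrophils. In all 3 the sgRNA #2 libraries lay above the control libraries after scaling, with sgRNA #2 replicate 1 the highest by count.

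The CXCL5 call held without each library in turn and by DESeq2, while those of CXCL1 and CXCL2 were lost without some libraries. CXCL1 no longer passed without control replicate 3 (adjusted p = 0.0682), sgRNA #2 replicate 1 (adjusted p = 0.126) or sgRNA #2 replicate 2 (adjusted p = 0.0760), nor by DESeq2 (adjusted p = 0.283), where the first 3 values are from edgeR, and its log2 fold change ranged from 0.48 to 0.79 over all alternatives. CXCL2 no longer passed without the same libraries, with adjusted p = 0.105, 0.116 and 0.0618 by edgeR, and it passed by DESeq2 (adjusted p = 0.0174), with log2 fold changes from 0.38 to 0.61. CXCL3 had a log2 fold change of 0.78 (SE 0.277), which did not pass over all 6 libraries (edgeR adjusted p = 0.222). It passed with the block (adjusted p = 7.1e-04), and without the block when sgRNA #2 replicate 3 was left out (log2 fold change 1.04, edgeR adjusted p = 0.0191). CXCL1, CXCL2 and CXCL3 are similar in sequence, and the counting could have split their reads.

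Closer to BTC, the tested neighbours other than AREG and EREG did not pass. Upstream on the plus strand, MTHFD2L, a mitochondrial folate enzyme gene whose body ends 442 kb away, differed by 0.29 on the log2 scale (adjusted p = 0.631). AREG lay 289.8 kb and EREG 356 kb from BTC, and EPGN, the epigen gene between them and MTHFD2L, had 0, 0 and 2 counts in both groups. On the other side, PARM1, 139 kb away, differed by 0.14 (adjusted p = 0.844), and RCHY1, a ubiquitin ligase gene 685 kb away, by 0.18 (adjusted p = 0.754). THAP6, 719 kb away, differed by -0.01 (adjusted p = 0.983). All these values are from the same edgeR fit. Without single libraries MTHFD2L ranged from 0.18 to 0.43, PARM1 from 0.06 to 0.27, RCHY1 from 0.09 to 0.32 and THAP6 from -0.07 to 0.04. The only tested gene of the stretch with a difference of more than 1 on the log2 scale was BTC.

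**Figure D3:**
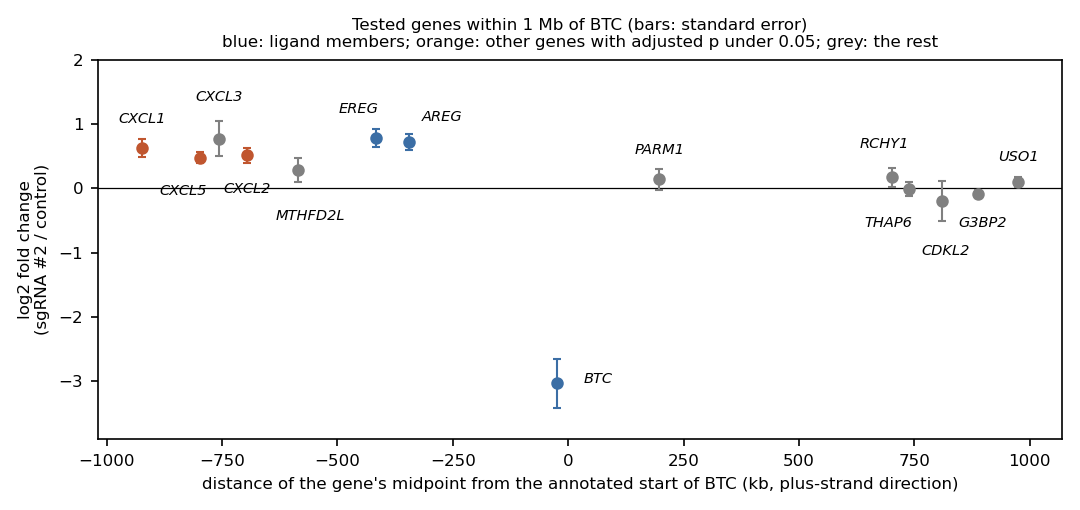
Log2 fold change (sgRNA #2 over control, with the standard error) of the 14 tested genes within 1 Mb of BTC, plotted against the distance of the middle of each gene from the start of BTC in kb. BTC stands alone at -3.03, AREG and EREG lie at 0.72 and 0.78, and CXCL1, CXCL2 and CXCL5 (orange) are the other genes with an adjusted p under 0.05.

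Genes that act with these ligands and receptors were examined in 6 lists of 94 genes, all present in the files, of which 87 were tested. The lists were written with earlier results of these data known, so their counts of calls are given as a description. Past both cut-offs were 0, with edgeR and with DESeq2, while 16 had an unadjusted p under 0.05 in edgeR, as did 11.1% of all tested genes. With the adjusted p alone 8 passed, beside 2.69% of all tested genes, 7 higher (0.464% of all) and 1 lower (2.22% of all). Their median log2 fold change was 0.02, beside 0.0035 for all tested genes. With the replicate block 15 passed, beside 10.0% of all tested genes. By DESeq2 it was 6, beside 2.26%, and 5 passed in edgeR without control replicate 3 or without sgRNA #2 replicate 3.

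Among the remaining ligands and the remaining receptor, 2 of 6 genes were tested and 0 passed in edgeR or DESeq2, with 0 at an unadjusted p under 0.05. NRG1, the main ligand of ERBB3, was abundant in both groups, with 1588, 1408 and 1658 against 1717, 1331 and 1281 counts and a log2 fold change of -0.03 (edgeR adjusted p = 0.95). NRG4, a ligand of ERBB4, had 21, 27 and 28 against 24, 19 and 8 counts and a log2 fold change of -0.49 (edgeR adjusted p = 0.617), which was -0.21 without sgRNA #2 replicate 3 and -0.76 without sgRNA #2 replicate 1. ERBB4 and NRG3 were at 0 in every library, which allows up to 0.394 to 0.4997 CPM by the floor of 3 counts. NRG2 had at most 3 counts in any library. The receptors detected were thus EGFR, ERBB2 and ERBB3.

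Of 12 genes for shedding of the ligands 11 were tested. In edgeR or DESeq2 0 passed, beside 2.69% and 2.26% of all tested genes, 0 had an unadjusted p under 0.05 in edgeR, beside 11.1%, and their log2 fold changes lay between -0.16 and 0.10, with a median of -0.0053. ADAM17, the main sheddase of AREG, EREG, TGFA and HBEGF, had a log2 fold change of 0.10, and ADAM10, that of BTC and EGF, had -0.03. ADAM15 had -0.16 and ADAM9 -0.07. FRMD8, a partner of the iRhom proteins that carry ADAM17 to the surface, had 0.06. Without single libraries ADAM15 ranged from -0.24 to -0.11, ADAM9 from -0.10 to -0.04, ADAM17 from 0.06 to 0.14 and FRMD8 from 0.03 to 0.11.

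Of 19 adaptor and RAS to ERK genes, all tested, 1 passed, on the lower side, beside 2.22% of all tested genes. MAP2K2, which encodes the ERK kinase MEK2, fell by 0.41 on the log2 scale (SE 0.0867, edgeR adjusted p = 0.0123), with 338, 410 and 477 counts against 323, 291 and 252. Without control replicate 3 (log2 fold change -0.35, adjusted p = 0.0793) or sgRNA #2 replicate 3 (-0.38, adjusted p = 0.0625) it no longer passed in edgeR. SHC1, an adaptor of active receptors, had a log2 fold change of 0.10, and ARAF, a kinase of the cascade, had 0.09, and without single libraries these ranged from 0.05 to 0.16 and from 0.05 to 0.13. The median of this list was -0.0060. Of 17 genes of the PI3K and AKT, phospholipase C and STAT branch, 0 passed in edgeR or DESeq2 and 1 had an unadjusted p under 0.05, beside 11.1% of all tested genes, with log2 fold changes from -0.15 to 0.21 and a median of -0.0050. PIK3CB, a catalytic subunit of PI3K, had 0.20 (adjusted p = 0.331, and 0.0436 with the block, edgeR), STAT5B -0.13, PLCG1 -0.09 and STAT5A 0.21. Without single libraries STAT5B ranged from -0.19 to -0.07, PLCG1 from -0.17 to -0.02 and STAT5A from 0.06 to 0.47.

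Of 20 genes for receptor degradation and feedback, 18 were tested and 1 passed, on the higher side, beside 0.464% of all tested genes. DUSP6, an ERK phosphatase that ERK signalling itself induces, rose by 0.41 on the log2 scale (SE 0.0776, edgeR adjusted p = 0.00543), with 517, 612 and 545 counts against 773, 710 and 613, and passed without each library in turn. SPRY4, a feedback inhibitor of RAS signalling, had a log2 fold change of 0.28 (edgeR adjusted p = 0.276). With the block 3 passed, beside 10.0% of all tested genes, adding SOCS4 at 0.19 (adjusted p = 0.00760 with the block, edgeR) and DUSP4, another ERK phosphatase, at -0.16 (adjusted p = 0.00481 with the block, edgeR). The 2 ERK phosphatases named therefore pointed in opposite directions. The median of the list was 0.09, and 6 of the 18 had an unadjusted p under 0.05, beside 11.1% of all tested genes.

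The ERK-responsive genes held most of the calls. Of 20 genes, all tested, 6 rose and 0 fell at the adjusted p, beside 0.464% of all tested genes higher and 2.22% lower. As this list too was chosen with earlier results of these data known, nothing is drawn from that contrast. PTGS2, the inducible cyclooxygenase, had 271, 298 and 354 counts with the control and 525, 428 and 411 with sgRNA #2, a log2 fold change of 0.65 (SE 0.0849, edgeR adjusted p = 1.1e-04). CXCL8, the neutrophil chemokine interleukin 8, had 219, 233 and 178 against 400, 476 and 288 counts, a log2 fold change of 0.96 (SE 0.144, edgeR adjusted p = 5.5e-04). Both lay above all control libraries in each sgRNA #2 library. PHLDA1 had 1150, 1186 and 1531 against 1773, 1514 and 1788 counts, a log2 fold change of 0.49 (edgeR adjusted p = 0.00375). ETV5, an ETS transcription factor, had 386, 452 and 499 against 572, 565 and 499 counts, a log2 fold change of 0.38 (edgeR adjusted p = 0.00458), and its groups separated after scaling for depth.

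For EGR1 and ETV4 the call was lost without some libraries, while the difference kept its size. EGR1, an immediate early transcription factor, was low, with 19, 20 and 21 against 39, 35 and 38 counts and a log2 fold change of 0.99 (SE 0.229, edgeR adjusted p = 0.0229). It passed in edgeR without sgRNA #2 replicate 2 (adjusted p = 0.0447) and did not pass without any other single library (adjusted p between 0.05001 and 0.0874), nor by DESeq2 (adjusted p = 0.112), with log2 fold changes between 0.91 and 1.04 throughout. ETV4 had 264, 345 and 371 against 404, 388 and 387 counts and a log2 fold change of 0.36 (SE 0.0881, edgeR adjusted p = 0.0317). It passed without control replicate 2, but not without control replicate 1 or 3 (adjusted p = 0.117 and 0.0516) or sgRNA #2 replicate 1, 2 or 3 (adjusted p = 0.0632, 0.0681 and 0.160), nor by DESeq2 (adjusted p = 0.0527), with log2 fold changes between 0.30 and 0.40 throughout. Both were higher with sgRNA #2 in each of the 3 pairs. With the block 10 of the 20 passed, 9 higher, beside 3.97% of all tested genes, and 1 lower, CCND1, the cyclin D1 gene, at a log2 fold change of -0.13. The 3 further genes on the higher side were IER3 at 0.33, MCL1 at 0.13 and MYC at 0.13. FOS at 0.26 (adjusted p = 0.755, edgeR) and JUN at -0.07 did not pass. Log2 fold changes of the list lay between -0.34 and 0.99, with 13 above 0 and 7 not, and the median was 0.13.

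**Figure D4:**
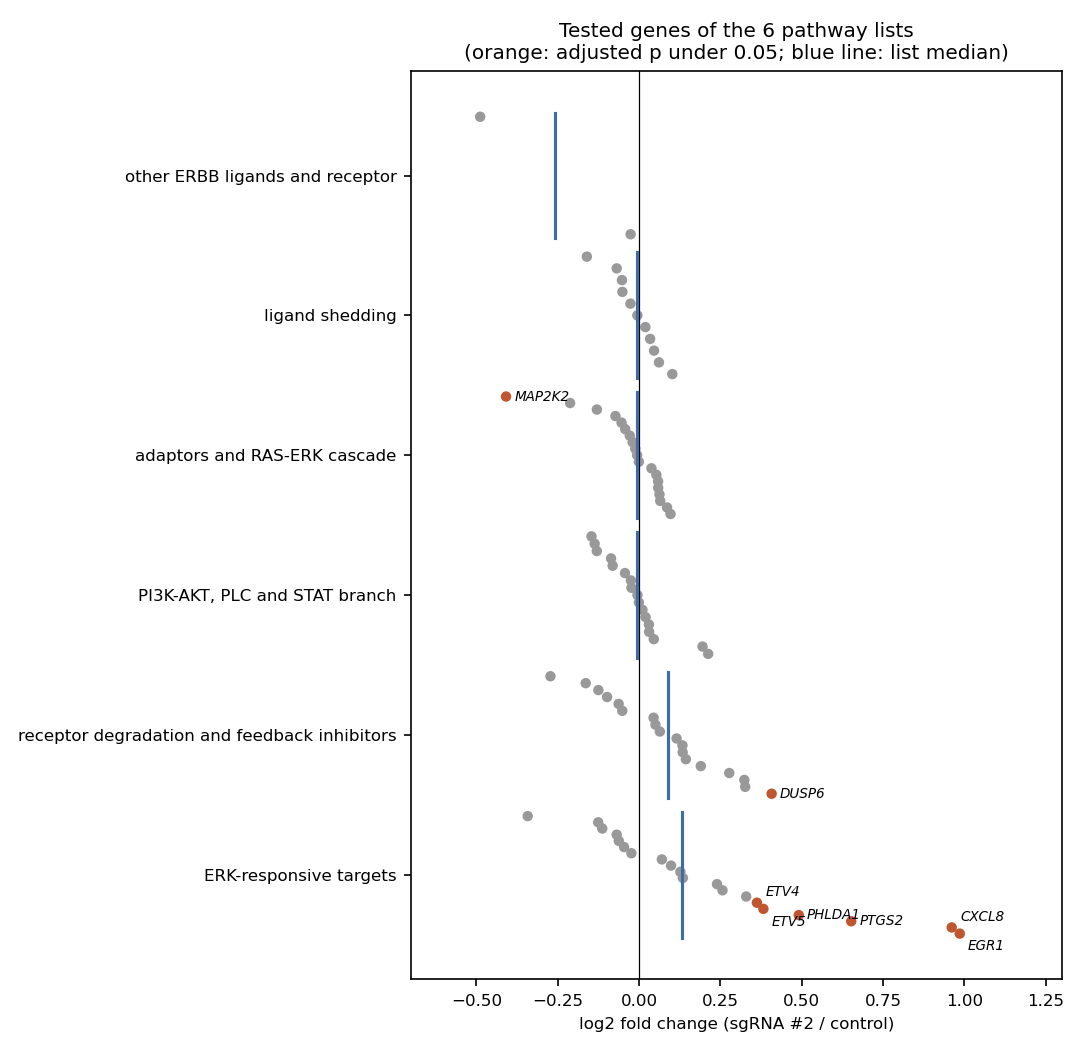
Log2 fold change (sgRNA #2 over control) of each of the 87 tested genes of the 6 lists, with 1 point per gene, the list median as a blue line, and the 8 genes with an adjusted p under 0.05 named in orange. Most genes lie near 0, MAP2K2 is the only orange gene on the lower side, and the orange genes on the higher side are DUSP6 and 6 ERK-responsive genes.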

How the data were processed

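RNA-seq counts of 6 A549 libraries were used, 3 per group, with groups and replicate numbers from the labels. Values are raw counts for each gene symbol, which the authors obtained with HTSeq and deposited. The submitters' processing notes name hg38, Bowtie2 2.3.3.1, Trim Galore, FastQC, SAMtools and Picard, and the annotation and strand setting are not given in the sources used here. Reads outside genes (19.7 to 21.1%) and ambiguous reads (2.61 to 2.75%) were left out of library sizes, and unaligned and multiply aligned reads are listed at 0.

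The 13356 genes that reached 10 counts in 3 or more libraries were tested in R 4.3.3 with edgeR 4.0.16, by TMM normalization, the quasi-likelihood test and Benjamini-Hochberg adjustment over all of them. The cut-offs are those of the study. Standard errors are the log2 fold change divided by the square root of F. CPM are counts per 1e6 reads on tested genes after TMM. A floor of 3 counts was taken as the limit of detection. On simulated counts for this comparison, 198 of 200 changed genes were recovered among 13356 (100 of 100 at a log2 fold change of 2 in size, 98 of 100 at 1.5), with 0 false calls, by both cut-offs. The changed genes were drawn only from genes with a higher mean count than that of BTC, and libraries were simulated without pairing. The recovery therefore does not cover BTC, differences smaller than 1.5, or calls by the adjusted p alone.

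Alternatives were DESeq2 1.42.0, total counts only, RLE size factors, no filter, 10 counts in each library, a block for the replicate number, leaving out each library, and the longest transcript as length. Same-numbered libraries of the groups deviated together (correlations 0.268, 0.287 and 0.291 over 13355 genes, and -0.181 to -0.10 between different numbers), so the numbers, which come from the labels, were taken to pair them. With the block, and without a filter, edgeR estimated infinite prior degrees of freedom against 13.0 otherwise, so those p-values rest on the trended dispersion alone.

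Positions are from GENCODE release 44 on GRCh38, to which 24531 symbols were matched, 1370 through an older symbol, and 1954 were not. Promoters came from RefSeq (8 of 9 genes matched) and the sgRNA sequence from the study's supplement, searched in Python 3.11.15, with intervals from scipy 1.17.1. Named genes were the 9 members, SFTPB and LAMP3, in each of the 6 pathway lists every called gene and otherwise up to 4 with the smallest p, near BTC the nearest 3 tested genes on each side and every called gene, and the 5 genes most like BTC. Not every gene so selected is reported here. CXCL3, CDH1, KRT8, AKR1B10, TP63, COL1A1, ADAM10, IER3, MCL1, MYC, CCND1, FOS, JUN, NRG2, NRG3, EPGN and ERBB4 were named in addition after their values were seen. The members, lists and motifs were chosen with earlier results of these data known.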

Additional observations from a re-analysis of the deposited data

How the results depend on the processing

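The replicates number 3 per group and BTC rests on 3 counts in each sgRNA #2 library, so its size is limited by depth more than that of the other ligands. Of 490 log2 fold changes under the alternatives, for 41 genes (those of the naming rule and CDH1, without SFTPB, LAMP3 and the genes most like BTC other than ERBB2), 457 kept direction and side of the threshold, 22 dropped below it, 7 passed it and 4 changed sign. The sign changes were those of NRG1, which ranged from -0.1075 to 0.0706 without single libraries and was 0.0365 without sgRNA #2 replicate 2, and of THAP6, which ranged from -0.0658 to 0.0420 and was 0.0025 without control replicate 1; the cause was not tested. With at least 10 counts in every library, BTC was not among the genes tested, the genes past both cut-offs numbered 63 in place of 96, and 0 of the 9 ligands and receptors and 0 of the genes near BTC passed. At the adjusted p alone 583 genes passed without a filter and 1339 with the replicate block, in place of 359. The block gave 15 pathway genes in place of 8 and 10 ERK-responsive genes in place of 6, and also 3 in place of 1 for receptor degradation and feedback, 1 in place of 0 for the PI3K branch, and 3 in place of 1 for the A549 and epithelial markers, where AKR1B10 and KRT8 joined CDH1. It changed the counts past both cut-offs by less than 1.5 times. Leaving out each library gave 78 to 104 genes past both cut-offs and 223 to 344 at the adjusted p alone, the 223 without sgRNA #2 replicate 1. It gave 0 to 1 pathway genes past both cut-offs: CXCL8 without control replicate 1 (log2 fold change 1.07), control replicate 2 (1.03) and sgRNA #2 replicate 3 (1.09), and EGR1 without sgRNA #2 replicate 2 (1.04). It gave 5 to 8 pathway genes at the adjusted p alone, 5 without control replicate 3 and 5 without sgRNA #2 replicate 3, and 4 to 6 ERK-responsive genes. Near BTC 1 to 2 genes passed both cut-offs, BTC itself and, without sgRNA #2 replicate 3, CXCL3 (log2 fold change 1.04, adjusted p = 0.0191, edgeR). At the adjusted p alone 4 to 7 passed, with BTC, AREG and EREG counted among them. Of the 9 ligands and receptors, 1 passed both cut-offs and 4 the adjusted p alone without each library in turn. With the longest transcript as length, levels per kb moved beyond the spread for most of the 9 genes, and the order of the receptors changed as given above.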

Other observations

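The genes whose levels ran most like BTC over the 6 libraries were ERBB2, FGFR1, SEL1L3, RUSC1 and TGM2, among 13354 genes with enough reads to compare. The Pearson r of log2 CPM with BTC was 0.998 for ERBB2, 0.998 for FGFR1, 0.997 for SEL1L3, 0.997 for RUSC1 and 0.997 for TGM2. The 6 points form 2 groups of 3, and the libraries of a group share their treatment, so r is given as a description, and since the genes were picked for a likeness that is mostly the difference between the groups, that difference is given without a test. FGFR1, a fibroblast growth factor receptor, had 1923, 2379 and 2329 counts with the control and 1202, 1084 and 1019 with sgRNA #2, a log2 fold change of -0.92 (SE 0.0654). RUSC1 had 317, 417 and 363 against 45, 53 and 44 counts, a log2 fold change of -2.86 (SE 0.132). TGM2, a transglutaminase, had a log2 fold change of -0.89 and SEL1L3 one of -0.68. In all 5 genes control replicate 2 held the highest CPM of the 6 libraries, as it did for BTC.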
